A study of Mus musculus with 35 samples.

Results

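The 7 genes described here are regulators and marks of the pluripotent state: Sall1, Sall4, Lin28a, Lin28b, Trim71, Tdh and Alpl. They are given by name, 7 of 21631 protein-coding genes on chromosomes 1 to 19 and X; no measured value enters the rule, but the set was drawn up with earlier results of these data known. For each gene, every peak over the gene or within 50 kb of either end was taken from 22 peak lists, 12 for H3K27ac, the acetylated form of histone H3 lysine 27 that accompanies active regulatory DNA, and 10 for the zinc finger factor KLF4. The 7 windows held 165 merged H3K27ac regions out of 147630 near protein-coding genes, and 111 merged KLF4 regions out of 72911.

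The fibroblasts (MEF) had a C57BL/6 x 129 background and carried an OKSM cassette (Pou5f1, Klf4, Sox2 and Myc, switched on by doxycycline) at Col1a1 and the M2rtTA transactivator at ROSA26. H3K27ac was profiled in these cells without doxycycline, unsorted (2 libraries). Reprogramming cells grew in ESC medium to which doxycycline (1 µg/ml) and ascorbic acid (50 µg/ml) had been added, and were taken unsorted at day 3 (3 libraries) and after a sort for the surface antigen SSEA1 at day 6 (3) and day 9 (2). The V6.5 embryonic stem cell (ESC) line, unsorted, was the reference (2). KLF4 was profiled in 2 libraries each of day 3, day 6, day 9, ESC in ESC medium, and ESC with 1 µM MEK inhibitor and 3 µM GSK3 inhibitor (2i). The cassette supplies KLF4 itself, so that KLF4 binding on days 3 to 9 is binding in cells where the factor was induced. ESC is 1 line and grows on irradiated feeder fibroblasts, per the labels' protocols. The series' design text speaks of biological replicates, but the labels do not say whether they were separate cultures or animals, so p-values measure the spread between these libraries, which may be technical.

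SALL1 and SALL4 are zinc finger transcription factors, and SALL4 is part of the network around OCT4 and NANOG in mouse ESC. LIN28A and LIN28B are RNA-binding proteins that block maturation of the let-7 microRNAs, and TRIM71 (LIN41), a ubiquitin ligase and RNA-binding protein, is a classic target of let-7. TDH, threonine dehydrogenase, feeds threonine into glycine and acetyl-CoA, on which mouse ESC depend, and ALPL, the tissue-nonspecific alkaline phosphatase, gives the enzyme stain long used to find pluripotent colonies.

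The windows, in GRCm38 coordinates, lay around Sall1 (chr8:89027242-89044162), Sall4 (chr2:168748332-168767201), Lin28a (chr4:134003330-134019196), Lin28b (chr10:45376617-45486314), Trim71 (chr9:114511268-114564369), Tdh (chr14:63492347-63509092) and Alpl (chr4:137741731-137796384). No other protein-coding gene reached into the Sall1 window. The other windows also held parts of neighbours: Atp9a beside Sall4, Hmgn2, Dhdds and Crybg2 beside Lin28a, Bves beside Lin28b, Glb1, Ccr4 and Cnot10 beside Trim71, Fam167a and Mtmr9 beside Tdh, and Rap1gap beside Alpl. A peak in these parts is named with the neighbour it overlaps.

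The bases before the start are shown for the 3 genes whose first annotated start is also the outer end of the gene, because H3K27ac peaks spread over each of them in ESC while KLF4 met them differently. Each line gives the 250 bases upstream of the start, 5′ to 3′ on the minus strand, from RefSeq (GRCm38.p6). Capitals mark matches, on either strand, to GGGNGTGG, a form of the KLF motif, or to the looser CCNCNCCC, which contains the reverse complement of GGGNGTGG as a special case.
Trim71, chr9:114564370-114564619: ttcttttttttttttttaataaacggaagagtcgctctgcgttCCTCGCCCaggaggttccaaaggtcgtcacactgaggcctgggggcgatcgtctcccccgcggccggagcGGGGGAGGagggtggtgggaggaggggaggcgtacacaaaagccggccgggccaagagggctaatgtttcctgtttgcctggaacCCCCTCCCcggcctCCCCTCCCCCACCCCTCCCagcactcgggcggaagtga
Alpl, chr4:137796385-137796634: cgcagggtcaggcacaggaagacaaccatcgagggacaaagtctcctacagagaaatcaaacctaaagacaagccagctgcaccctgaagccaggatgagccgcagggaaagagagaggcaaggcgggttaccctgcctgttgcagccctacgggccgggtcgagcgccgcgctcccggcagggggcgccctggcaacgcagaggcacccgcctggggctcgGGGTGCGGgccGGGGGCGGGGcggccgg
Sall1, chr8:89044163-89044412: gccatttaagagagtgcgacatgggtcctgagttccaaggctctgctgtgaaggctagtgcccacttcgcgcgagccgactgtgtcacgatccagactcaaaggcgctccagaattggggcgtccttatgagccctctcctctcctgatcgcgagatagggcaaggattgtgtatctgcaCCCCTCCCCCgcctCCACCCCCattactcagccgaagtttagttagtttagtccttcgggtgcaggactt
The Trim71 stretch held 7 matches to CCNCNCCC and none to GGGNGTGG, the Alpl stretch 3 and 0, and the Sall1 stretch 3 and 1. Over all 32851 annotated starts, 45.9% had CCNCNCCC and 15.9% had GGGNGTGG in the same 250 bases. A KLF4 region covered 234 of the 250 Trim71 bases and 150 of the Alpl bases, and no KLF4 region reached the Sall1 bases. Lin28a had 4 matches to CCNCNCCC and none to GGGNGTGG before its start. Lin28b had no match to either. Promoter entries were matched for 5 of the 7 genes.

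All 7 genes carried more H3K27ac in ESC than in MEF, and they reached that state by different routes. Trim71 and Tdh had gained acetylation by day 3, Sall4 rose from day 3 to day 6, as did Lin28a per Mb of list but not in unscaled length, and Alpl and Lin28b rose from day 6 to day 9. Sall1 lost its fibroblast acetylation by day 3 and regained it late. In these bulk samples, fewer cells with a peak and less signal per cell cannot be told apart. H3K27ac is given as the length covered by peaks in the window, in kb, and as that length per Mb covered by the whole list. The latter was tested, because the lists covered from 9.21 Mb to 83.5 Mb. Differences are on the scale log2(covered bp per Mb + 20), tested with limma over 19778 genes.

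**Figure D1:**
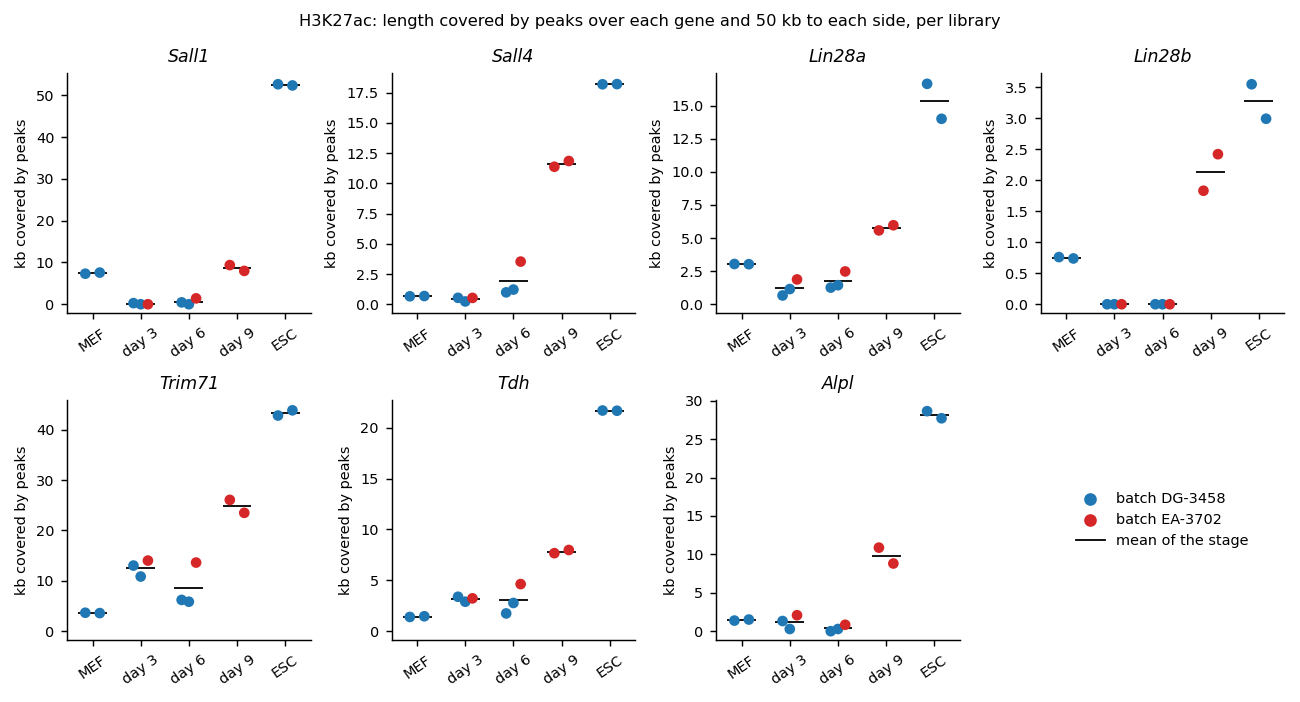
Length covered by H3K27ac peaks (kb, y axis) over each of the 7 genes and 50 kb to each side, by stage. Points are libraries coloured by batch and lines are stage means; in Sall1 the 2 ESC libraries stand at 52.6 and 52.4 kb, and in Lin28b all 6 libraries of day 3 and day 6 stand at 0.

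Trim71 held 3.65 and 3.58 kb of acetylated sequence in the 2 MEF libraries. The day 3 libraries held 13.0, 10.8 and 14.0 kb and the day 6 libraries 6.21, 5.84 and 13.6 kb. The day 9 libraries held 26.1 and 23.5 kb, and the ESC libraries 42.8 and 43.8 kb. Every later library lay above both MEF libraries, and day 3 and day 6 overlapped in kb. As a share of the list, Trim71 rose from MEF to day 3 by 2.77 ± 0.11 (SE) on the log2 scale (limma, adjusted p = 6.8e-08), where 29.1% of all genes tested were higher and 19.3% lower. At that stage 93.1% to 95.0% of protein-coding genes had a smaller share of their window covered than Trim71, and 98.6% to 98.9% did in ESC. The later steps of Trim71 depended on the scaling: day 9 minus day 6 was -0.33 ± 0.11 (limma, adjusted p = 0.034) per Mb of list and 1.52 (adjusted p = 0.00038) in unscaled length.

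The start of Trim71 was among the places acetylated early. A region over the start and the 5′ part of the gene (chr9:114554436-114565392) was called in 1 of 2 MEF libraries and in every library of the later stages. Its mean fold enrichment, as deposited by the authors, was 4.78 in the 1 MEF library, then 8.25 (day 3), 11.3 (day 6), 30.1 (day 9) and 31.5 (ESC). Another 3 regions were acetylated at all 5 stages: one 20.1 kb upstream, which touches Cnot10, and a pair 16.3 and 35.8 kb into the gene. Of the regions between the start and the upstream site, the one 14.8 kb upstream was found in ESC and in no library of another stage, while the one 17.3 kb upstream was called in 1 of 3 libraries at day 3, in none at day 6 and in both at day 9.

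Tdh held 1.40 and 1.47 kb in MEF, all of it in 1 region over the neighbour Mtmr9. The day 3 libraries held 3.38, 2.90 and 3.23 kb and the day 6 libraries 1.75, 2.77 and 4.63 kb. Day 9 brought 7.67 and 7.98 kb, and both ESC libraries held 21.7 kb. Day 3 exceeded MEF in every library, by 1.74 ± 0.21 (limma, adjusted p = 8.8e-05). Inside the gene, the region chr14:63495841-63505565 had a peak in no MEF library and in every library from day 3 on, with a mean fold of 5.35 (day 3), 6.08 (day 6), 18.5 (day 9) and 26.7 (ESC). The upper gene end followed later, in 2 of 3 libraries at day 6 and in all libraries of day 9 and ESC.

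Sall4 had 1 acetylated region in MEF, of 0.657 and 0.678 kb, which lay over Atp9a. Its window held 0.53, 0.231 and 0.524 kb at day 3 and 0.983, 1.21 and 3.53 kb at day 6. It then held 11.4 and 11.8 kb at day 9 and 18.2 kb in both ESC libraries. All day 6 libraries lay above all day 3 libraries. The step from day 3 to day 6 was 2.17 ± 0.18 (limma, adjusted p = 2.5e-05), where 36.5% of all genes rose and 14.9% fell. A merged region of 8741 bp lay over the upper gene end and reached into the gene (chr2:168759294-168768034). It had a peak in none of the MEF or day 3 libraries and in all 3 at day 6. Its mean fold was 3.17 at day 6, then 12.9 at day 9 and 32.3 in ESC. Within 1 kb of the upper gene end itself, 2 of 3 day 6 libraries had a peak, and fewer than 2 did at q at most 0.01.

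Lin28a had 3.04 and 3.02 kb in MEF, in 2 regions, one over Dhdds and one over both Hmgn2 and Dhdds. The day 3 libraries had 0.663, 1.15 and 1.87 kb and the day 6 libraries 1.26, 1.44 and 2.48 kb. The day 9 libraries had 5.58 and 5.97 kb, and the ESC libraries 16.7 and 14.0 kb. Day 3 and day 6 overlapped in kb. The share of the list rose from day 3 to day 6 by 1.39 ± 0.19 (limma, adjusted p = 0.00028), but in unscaled length the difference was 0.30 (adjusted p = 0.30). The 2 regions present at day 6 were those over the neighbours, and 1 region inside the gene was called in 1 of 3 day 6 libraries. The start of the gene (chr4:134016970-134018850) was acetylated in 0 libraries up to day 6, in 1 of 2 at day 9 and in both ESC libraries. A region 7.19 kb into the gene (chr4:134009673-134013578) was found in ESC and in no library of another stage, with a mean fold of 14.2.

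Lin28b had 0.761 and 0.739 kb in MEF, in 1 region over Bves, and no peak in any of the 6 day 3 and day 6 libraries. It had 1.83 and 2.42 kb at day 9 and 3.55 and 2.99 kb in ESC. Day 9 was higher than day 6 by 1.65 ± 0.10 (limma, adjusted p = 2.1e-06), where 19.4% of all genes rose. With 6 libraries at 0, the fitted spread understates the error of Lin28b, and its differences from those stages depend on the added 20. Inside the gene, 2 sites were gained: the annotated start (chr10:45469116-45470205, mean fold 2.80 at day 9 and 5.01 in ESC) and the upper gene end 16.0 kb upstream of it (chr10:45485569-45486863, 5.65 and 12.1). Both were called in both libraries of day 9 and ESC and in no earlier library. The region over Bves, present in MEF, also returned in both libraries of day 9 (mean fold 3.58), so part of the tested difference lies over the neighbour.

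Alpl held 1.38 and 1.52 kb in MEF, where the 3 regions found in both libraries lay over Rap1gap. The day 3 libraries had 1.32, 0.286 and 2.08 kb and the day 6 libraries 0, 0.286 and 0.836 kb. The day 9 libraries had 10.9 and 8.81 kb, and the ESC libraries 28.6 and 27.7 kb. The rise from day 6 to day 9 was 2.46 ± 0.46 (limma, adjusted p = 0.0023), and both day 9 libraries lay above every earlier one. One region inside the gene came much earlier (chr4:137776045-137780349): it was absent in MEF, present in all 3 day 3 libraries with a mean fold of 3.81, in 2 of 3 at day 6 with 3.29, and highest at day 9 with 26.6 against 15.3 in ESC. The first annotated start of Alpl was acetylated in no library before day 9 and in all libraries of day 9 and ESC. The second start, further into the gene, was acetylated in ESC alone among the 5 stages.

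Sall1 was the 1 member with an acetylated start in both MEF libraries. Its window held 7.31 and 7.58 kb in MEF. The day 3 libraries had 0.264, 0 and 0 kb and the day 6 libraries 0.447, 0 and 1.41 kb. The day 9 libraries had 9.37 and 7.98 kb, and the ESC libraries 52.6 and 52.4 kb. The day 3 and day 6 libraries thus lay below all the others. Sall1 fell from MEF to day 3 by 2.28 ± 0.50 on the log2 scale (limma, adjusted p = 0.0038), and rose from day 6 to day 9 by 2.02 ± 0.50 (adjusted p = 0.0085) and again from day 9 to ESC (adjusted p = 0.0090). In ESC 99.8% and 99.9% of protein-coding genes had a smaller share of their window covered. Much of the ESC acetylation lay outside the gene: regions of 9685 bp and 7455 bp beyond its 3′ end, centred 37.8 and 28.2 kb from the innermost annotated start, had mean folds of 24.5 and 23.1. With a window of 5 kb around the gene, ESC minus MEF for Sall1 was 1.22 (limma, adjusted p = 0.0998), so the call rests on regions further away.

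**Figure D2:**
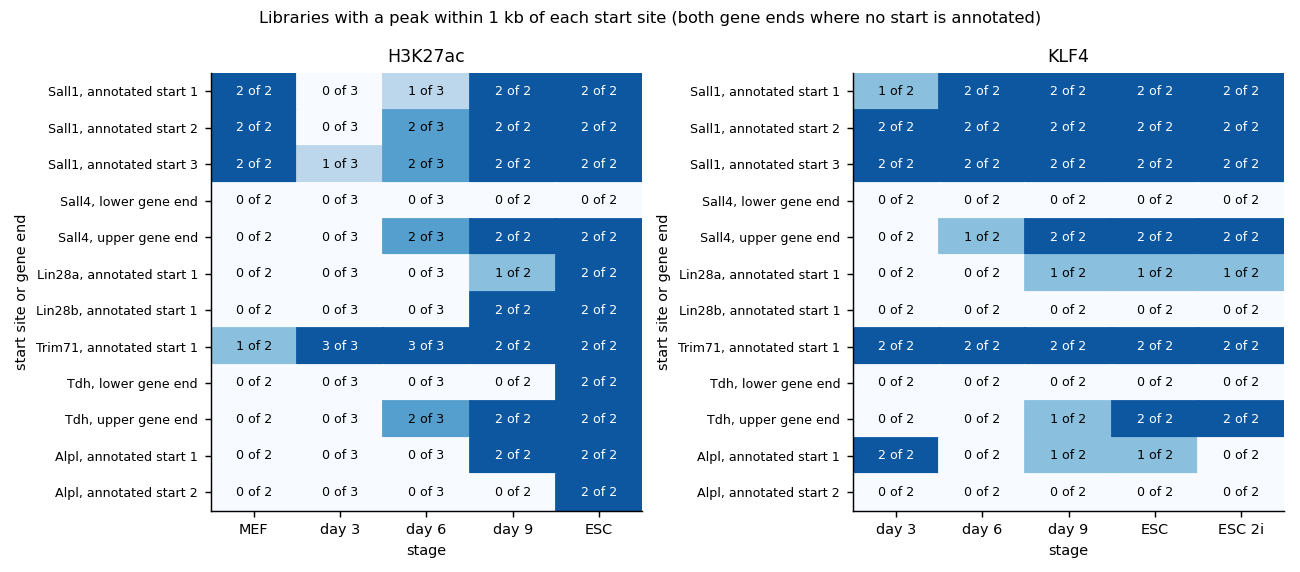
Number of libraries with a peak within 1 kb of each annotated start of the 7 genes, or of both gene ends for Sall4 and Tdh, which have no promoter entry (rows), by stage (columns), for H3K27ac (left) and KLF4 (right). Darker cells mean a larger share of the libraries; Trim71 is filled from day 3 on in both panels, and Alpl start 1 is filled at day 3 for KLF4 and from day 9 for H3K27ac.

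At the start sites, read as a peak within 1 kb in at least 2 libraries, acetylation was found in 1 member in MEF (Sall1; 57.2% of 17274 protein-coding genes with an annotated start) and in 1 at day 3 (Trim71; 50.2%). Sall4 and Tdh have no promoter entry and were counted with a peak at either gene end, so they are not among the 17274 genes of these shares. It was found in 4 members at day 6 (44.8% of genes), adding Sall1, Sall4 and Tdh to Trim71, and in Trim71 and Tdh alone at q at most 0.01 (39.9%). It was found in 6 at day 9 (55.6%), where Lin28a was the one without, and in 7 in ESC (56.3%). KLF4 had such a peak in 3 members at day 3 (Sall1, Trim71 and Alpl; 26.4% of genes) and in 2 at day 6 (Sall1 and Trim71; 26.1%). It had one in 3 at day 9 (28.6%), in 4 in ESC (Sall1, Sall4, Trim71 and Tdh; 27.3%) and in the same 4 in 2i (30.6%). At q at most 0.01, KLF4 start peaks were left in Trim71 alone at day 3 (13.9%), in Sall4 and Trim71 at day 9 (20.4%), in Sall1 and Trim71 in ESC (13.5%) and in Trim71 and Tdh in 2i (15.1%). Lin28a and Lin28b had no KLF4 start peak in 2 libraries of any stage.

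ESC minus MEF, with all 4 libraries from batch DG-3458, was higher for 7 of 7 members, where 37.7% of all genes were higher and 26.4% lower. The log2 differences ran from 1.29 ± 0.11 for Lin28b to 3.61 ± 0.51 for Alpl (limma, adjusted p between 1.5e-08 and 0.00093). Their median was 3.26, and the median of all genes was 0.16. From MEF to day 3, 2 members were higher (Trim71 and Tdh) and 2 lower (Sall1 and Lin28b), where 29.1% of all genes were higher and 19.3% lower. The MEF signal of Lin28b lay over Bves, and with a window of 20 kb or 5 kb Sall1 alone was lower. From day 3 to day 6, 4 were higher (Sall4, Lin28a, Tdh and Trim71), where 36.5% of all genes were higher and 14.9% lower. In unscaled length Sall4 alone of these passed, and Trim71 (-0.60) and Tdh (-0.10) were negative. From day 6 to day 9, 4 were higher (Alpl, Sall1, Lin28b and Sall4) and 1 lower (Trim71), where 19.4% of all genes were higher and 25.9% lower. From day 9 to ESC, 4 were higher (Sall1, Tdh, Lin28a and Trim71), where 23.2% of all genes were higher and 31% lower. With a 5 kb window Tdh alone of these passed (15.9% of all genes higher), and by peak number none of the 4 did (14.2%; adjusted p 0.056 to 0.19, limma). By an exact permutation test of the F statistic over the 5 stages, all 7 passed with adjusted p of 0.00085 to 0.0049, and 80.2% of all genes passed.

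These steps coincide with features of the sampling. The cells of day 3 were unsorted and those of day 6 sorted, so time and sort cannot be told apart in that step. Day 9 was measured in batch EA-3702 alone and MEF and ESC in DG-3458 alone; within EA-3702, Trim71 covered 14.0, 13.6, then 26.1 and 23.5 kb over days 3, 6 and 9, Sall4 0.524, 3.53, then 11.4 and 11.8 kb, and Alpl 2.08, 0.836, then 10.9 and 8.81 kb. With batch as a term, 2 of the 4 higher calls from day 6 to day 9 passed (Lin28b and Alpl); Sall1 had an adjusted p of 0.054 and Sall4 of 0.073 (limma), and Trim71 from day 9 to ESC had one of 0.087. Single libraries also decided calls: from day 6 to day 9, Sall1 (0.065) and Sall4 (0.064) did not pass without day 9 replicate 1, nor did Sall4 (0.073) without replicate 2, and the lower value of Trim71 was lost in 6 of 12 such fits. From day 9 to ESC, Sall1 (0.055) and Trim71 (0.11) did not pass without day 9 replicate 2, Lin28a (0.055) without ESC replicate 1, and Trim71 (0.11) without ESC replicate 2. In unscaled length the median gene differed by -0.87 between MEF and day 3 and by 1.20 between day 6 and day 9, and the share of genes called higher and lower was 1.87% and 67.8% in the former step and 87.4% and 0% in the latter. For the other steps the unscaled shares were 0.303% and 42.1% (day 3 to day 6, median -0.45), 28.9% and 16.9% (day 9 to ESC, 0.11) and 27% and 33.2% (MEF to ESC, -0.10), where all 7 members were still higher in ESC than in MEF. Against that shift, Trim71 (1.55) and Tdh (0.78) were still higher at day 3 (adjusted p = 0.00045 and 0.014).

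Marker genes differed between stages. The 6 fibroblast markers Col1a2, Col3a1, Thy1, Prrx1, Twist2 and Postn summed to 136 and 138 kb of H3K27ac in MEF, 19.6 to 36.0 kb at day 3, 0.664 to 4.01 kb at day 6, 6.90 and 8.52 kb at day 9, and 5.58 to 5.88 kb in ESC, where 3 or 4 of the 6 still had a peak. All 6 were lower in ESC than in MEF and 6 of 6 pluripotency markers (Nanog, Zfp42, Esrrb, Tdgf1, Dppa5a and Tfcp2l1) were higher. The 4 epithelial markers Cdh1, Epcam, Krt8 and Krt18 all had a peak in every library and summed to 5.74 to 13.5 kb at day 6 and 76.7 and 72.7 kb at day 9, after 46.4 and 48.3 kb in MEF. These lengths are unscaled. In bp per Mb of list, the epithelial sum was 583 and 555 in MEF, 712, 624 and 679 at day 6, and 1568 and 1468 at day 9. The fibroblast sum was 1670 and 1629 in MEF, 92, 72 and 201 at day 6, and 141 and 172 at day 9. From day 6 to day 9, where 19.4% of all genes rose (limma), 4 of 4 epithelial and 4 of 6 pluripotency markers rose, as did Alpl, Sall1, Lin28b and Sall4. Their part in the members' step was not tested. The part of the ESC fibroblast signal that comes from feeders was not tested.

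**Figure D3:**
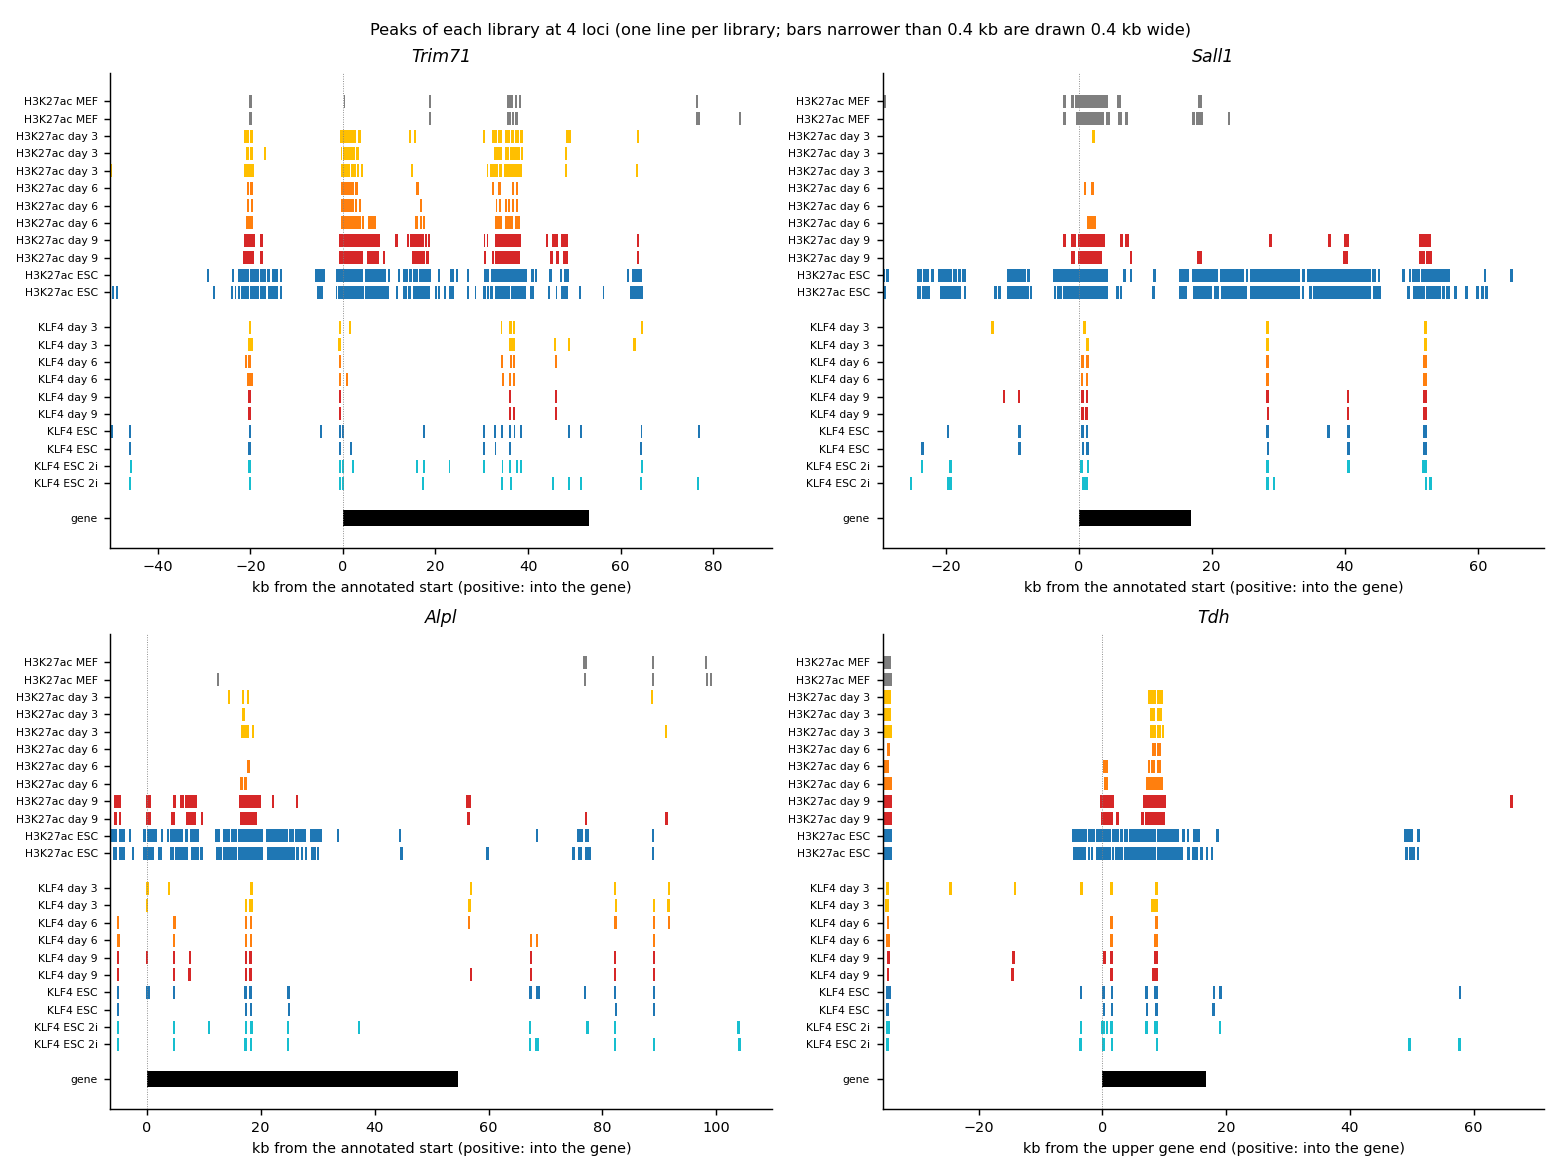
Peaks of each of the 22 libraries (rows, coloured by stage) around Trim71, Sall1, Alpl and Tdh, by distance in kb from the annotated start or, for Tdh, from the upper gene end; positive distances run into the gene and the black bar is the gene. KLF4 peaks 0.745 and 20.1 kb upstream of the Trim71 start, at 2 distal Sall1 sites beyond the far end of the gene, and inside Tdh and Alpl recur in every KLF4 stage, while the blocks of H3K27ac widen towards ESC.

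Region by region, 75 of the 165 H3K27ac regions in the 7 windows (45.5%) were present in both ESC libraries and absent from both MEF libraries, against 17.4% of regions near all protein-coding genes. The count was 138 when 1 library sufficed (48663 of 147630 near all genes), and 26 of 39 with the same number of top peaks from each list (5412 of 34443). With either ESC library left out, the other alone decides presence in ESC, and the counts were 126 of 156 (42204 of 142633) and 140 of 169 (41302 of 142085). The reverse, present in MEF and absent in ESC, held for 2 regions (1.21%), against 21.7%. Of the 75 gained regions, day 3 already had 5 (6.67%, against 5.88% of gained regions near all genes), day 6 had 4 (5.33%, against 3.29%) and day 9 had 20 (26.7%, against 17.7%). No library of days 3, 6 or 9 had a peak in 49 of them (65.3%, against 73.1%). The 5 present at day 3 lay at Trim71 (3), Tdh (1) and Alpl (1). Sall1 had 15 gained regions, of which 12 had no peak on days 3 to 9, Trim71 had 18 and 12, Sall4 10 and 6, Lin28a 10 and 8, Tdh 8 and 6, Alpl 11 and 4, and Lin28b 3 and 1. The share near all genes serves as the background, and members were not tested against it.

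KLF4 had at least 1 region in both libraries of every stage near 6 of the 7 genes, all but Lin28b. In a single library, 71.1% to 79.7% of all protein-coding genes had a KLF4 peak in their window. The share of all genes with a region at every stage was not counted. For Lin28a, the only region present at day 3 and day 6 lay over Hmgn2 (chr4:133967165-133967770), 51.3 kb from the Lin28a start. Peaks near Sall4, Lin28a and Trim71 were called more frequent in ESC than at day 3, calls that end without any 1 of the ESC or day 3 libraries, at q at most 0.01 or without scaling to the list. In the order day 3, day 6, day 9, ESC and 2i, the 2 libraries had 7 and 6, 7 and 7, 4 and 5, 17 and 8, then 14 and 12 KLF4 peaks near Trim71. In the same order Sall4 had 4 and 3, 4 and 4, 6 and 6, 12 and 6, then 14 and 7. Lin28a had 1 and 2, 1 and 3, 3 and 3, 8 and 3, then 7 and 5. For Sall4 and Trim71 both ESC libraries lay above both day 3 libraries, as they did for Lin28a. The other 4 genes had between 0 (Lin28b) and 13 (Alpl) peaks per library.

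**Figure D4:**
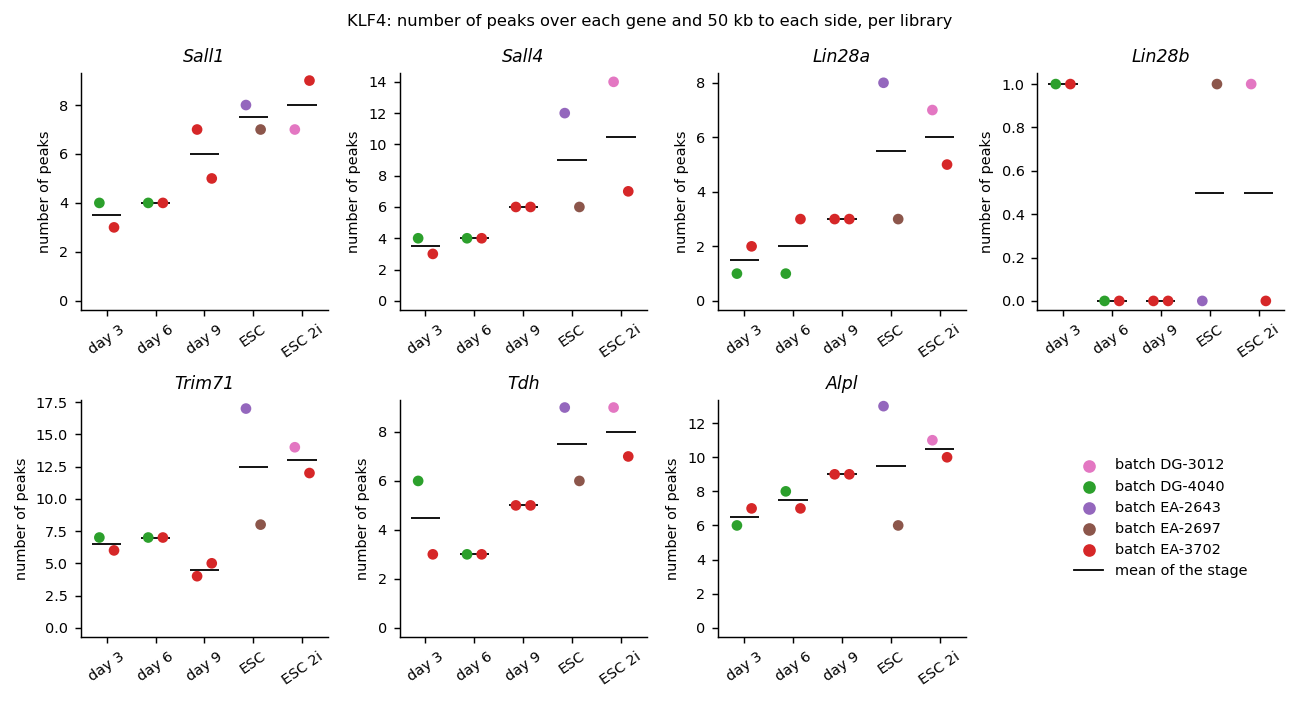
Number of KLF4 peaks (y axis) over each of the 7 genes and 50 kb to each side, by stage. Points are libraries coloured by batch and lines are stage means; the 2 ESC libraries come from different batches and differ by up to 9 peaks, at Trim71 (17 and 8), and Lin28b has at most 1 peak in any library.

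Tested as log2(peaks per 10000 of the list + 0.2), KLF4 peaks were more frequent in ESC than at day 3 near Lin28a (1.64 ± 0.45, limma, adjusted p = 0.049), Sall4 (1.37 ± 0.29, adjusted p = 0.020) and Trim71 (1.01 ± 0.25, adjusted p = 0.032). In that contrast 4.92% of 18861 genes tested were higher and 2.36% lower. Sall1 differed by 1.20 ± 0.34 (adjusted p = 0.054), Tdh by 0.91 ± 0.33 (0.10), Alpl by 0.63 ± 0.23 (0.11) and Lin28b by -0.49 ± 0.68 (0.68), and these did not pass. Trim71 was also higher in ESC than at day 9, by 1.18 ± 0.25 (limma, adjusted p = 0.034), where 1.78% of all genes were higher and 1.01% lower. No member passed from day 3 to day 6 (0% of all genes higher or lower), from day 6 to day 9 (0.0053% higher, 0.0106% lower) or from ESC to 2i (0.0106% higher, 0.0212% lower). At an unadjusted p of 0.05 by limma, Alpl passed in the first of these and Trim71, lower, in the next. Of all 18861 genes, 2289 passed that level from day 3 to day 6 and 1693 from day 6 to day 9.

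The KLF4 calls did not hold when single libraries were left out. Leaving out either ESC library or either day 3 library ended all 3 calls against day 3. Each of these fits leaves a stage with 1 library, which is assumed to vary like the others, and they call 0 to 588 of all genes higher in place of 928. In them the difference was 1.10 to 1.64 for Sall4, 1.32 to 1.95 for Lin28a and 0.81 to 1.21 for Trim71. The Lin28a call (adjusted p 0.076 to 0.084) was also lost without either day 9 or either 2i library and that of Trim71 (0.058) without either day 9 library, and Trim71 against day 9 was lost when any library of day 3, day 9, ESC or 2i was left out (adjusted p 0.054 to 0.23, limma). The exact permutation test over the 5 stages called none of 18861 genes, with 3927 at an unadjusted p of 0.05. With 945 partitions its smallest p is 0.00106, so many genes would have to share that value before any passed adjustment, and its count of 0 says little about these calls. In data simulated at the spread of these libraries, 100 genes were changed by 2 on the log2 scale and 100 by 1. Of those changed by 2, 19% were recovered for ESC minus day 3, so a difference that did not pass may have been missed. Fewer genes were changed there than were called here (928 higher and 445 lower). The adjustment was therefore stricter in the simulation, and 19% is not the recovery of the real test. ESC in ESC medium came from batches EA-2643 and EA-2697, which held no other stage, so batch and stage cannot be told apart there. Within batch EA-3702, in the order day 3, day 6, day 9 (2 libraries) and 2i, Trim71 had 6, 7, 4, 5 and 12 peaks and Sall4 had 3, 4, 6, 6 and 7.

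**Figure D5:**
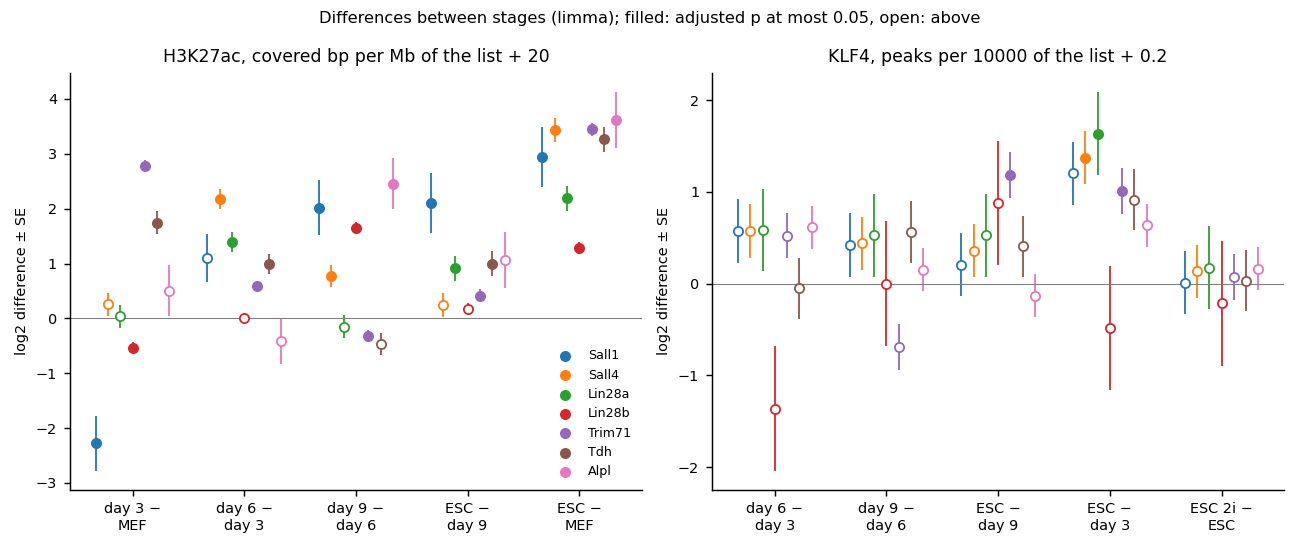
Differences between stages with their SE (limma, log2 scale) for H3K27ac (left) and KLF4 (right) at the 7 genes. Filled points passed an adjusted p of 0.05 and open points did not; all 7 H3K27ac points are filled for ESC minus MEF, and 3 KLF4 points are filled for ESC minus day 3.

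At Trim71, 3 KLF4 sites were called in both libraries of all 5 KLF4 stages. One lay 0.745 kb upstream of the start (chr9:114564833-114565394), beyond the bases printed above, with a mean fold of 9.14 (day 3), 6.99 (day 6), 7.89 (day 9), 4.95 (ESC) and 6.82 (2i). Another lay 20.1 kb upstream, in the region acetylated at all stages, with a fold of 9.72 at day 3 and 20.3 at day 9, and the last 36.5 kb into the gene. The site over the printed bases themselves (chr9:114564241-114564603) was called in no library of days 3, 6 and 9, in 1 of 2 in ESC and in 2 of 2 in 2i.

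At Sall1, KLF4 was called at 2 distal sites at stages with no H3K27ac region there. The sites, 50.7 kb (chr8:88991764-88992506) and 27.1 kb (chr8:89015535-89016023) from the innermost annotated start, had KLF4 in all 10 libraries. The first had a mean fold of 7.94 at day 3 and 13.8 at day 9. The merged H3K27ac region over the first was present at day 9 and in ESC. That over the second was present in ESC and called in 1 of 2 day 9 libraries (fold 2.22). No library of MEF, day 3 or day 6 had a peak in either region. Another 2 sites, over the inner annotated starts of the gene, were each called in 1 of 2 libraries at day 3 and in both at every later stage.

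Tdh and Alpl each had a KLF4 site inside the region acetylated from day 3 on. H3K27ac at a site here means a merged region present at that stage, whose peaks at that stage need not reach the site. In Tdh the site chr14:63500075-63500818 had KLF4 in all 10 libraries, with a mean fold of 11.8 at day 3 and 9.92 in ESC, and H3K27ac from day 3 on. Another site of the Tdh window, over Mtmr9 (chr14:63543317-63544169), also had KLF4 in all 10 libraries, and H3K27ac in MEF as well as later. In Alpl the site chr4:137777792-137778509 had KLF4 in all 10 libraries, with a fold that was highest at day 9 and lowest in ESC (3.77), and H3K27ac from day 3 on. The first start of Alpl, whose upstream bases are printed above, had KLF4 in both libraries at day 3, none at day 6, 1 of 2 at day 9 and in ESC, and none in 2i. Elsewhere in the window, the sites chr4:137704581-137705042, over Rap1gap, and chr4:137739401-137740055 were called in both day 3 libraries and in no library of ESC or 2i.

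Sall4 had early and late KLF4 sites. Inside the gene, the site chr2:168761010-168761743 was called in both day 3 libraries (mean fold 4.42). It lies in a merged H3K27ac region of 8741 bp that was present from day 6 on, whose day 6 peaks need not reach the site. A site over Atp9a was called in all 10 libraries. A site 2.24 kb outside the upper gene end (chr2:168769196-168769695) was absent at day 3 and day 6 and present in both libraries of day 9, ESC and 2i. An H3K27ac region over it was present in ESC alone. At Lin28a, a site 6.93 kb into the gene (chr4:134011606-134012172) was called in both ESC and both 2i libraries and in no library of days 3, 6 and 9, with folds of 5.52 and 5.47, inside the region acetylated in ESC alone. Lin28b had 0 or 1 KLF4 peak per library and no KLF4 region found in 2 libraries of any stage.

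In all, 32 KLF4 regions of the 7 windows were present in both ESC libraries. Of these, day 3 already had 12 (37.5%, against 49% of ESC regions near all protein-coding genes), day 6 had 16 (50%, against 51.6%), day 9 had 20 (62.5%, against 57.6%) and 2i had 24 (75%, against 60.1%). None of days 3, 6 and 9 had a peak in 8 of them (25%, against 19.3%). Of the 16 KLF4 regions of day 3, 2 were absent in ESC (12.5%, against 37.9%). An H3K27ac region present at the same stage overlapped 9 of 16 KLF4 regions of day 3 (56.2%, against 68.6%), 14 of 20 of day 6 (70%, against 55.9%), 22 of 28 of day 9 (78.6%, against 80.9%) and 28 of 32 of ESC (87.5%, against 79.1%). H3K27ac regions were merged over all stages, so these overlaps are with the merged extent, which peaks of the stage named need not reach. Of the 16 KLF4 regions at day 3, 6 overlapped a region acetylated in MEF (37.5%, against 57.7%), 13 one acetylated at day 9 (81.2%, against 76.2%) and 13 one acetylated in ESC (81.2%, against 59.6%). These differences from the background were not tested.

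Genes around the members in their pathways moved in both directions, as did all genes tested, of which 37.7% were higher and 26.4% lower in ESC than in MEF. These lists were not tested against that share. Of the other SALL genes, 2 of 2 rose in H3K27ac from MEF to ESC, Sall3 by 1.58 ± 0.26 (limma, adjusted p = 0.00044). On the LIN28 and let-7 axis, 5 of 12 rose and 3 fell, shares near those of all genes. Igf2bp1 (1.59 ± 0.16) and Igf2bp3 (1.02 ± 0.10), which code for RNA-binding proteins that are let-7 targets, and Dicer1 (0.91 ± 0.14), the nuclease that cuts the microRNA precursor, rose, while Hmga2, a let-7 target and chromatin protein, fell by 1.21 ± 0.13 (adjusted p between 8.1e-06 and 0.00023). In threonine, glycine and one-carbon metabolism, 5 of 9 rose and 1 fell, beside 37.7% and 26.4% of all genes. Gcsh, of the glycine cleavage system, rose by 1.51 ± 0.32 and Shmt1, the cytosolic serine hydroxymethyltransferase, by 1.02 ± 0.18, and the mitochondrial Shmt2 fell by 1.07 ± 0.32 (adjusted p between 0.00061 and 0.015). Of the 3 other alkaline phosphatases none rose and 2 fell, Alppl2 and Alpi, both from at most 1.05 kb in MEF to no peak in ESC, where Alpl covered 28.6 and 27.7 kb. The medians of these lists were 1.16, 0.57, 0.72 and -0.46, beside 0.16 for all genes.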

How the data were processed

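The authors deposited 1 peak list per ChIP-seq library, so peaks were called per sample. Per the submitters' processing notes, the build was mm10 (GRCm38) and the tools named were cutadapt 1.8.1, Bowtie2 2.2.5, deepTools 2.3.6 and MACS2 2.1.1; their settings are not given in the sources used here. Each deposited peak has a score, a fold enrichment (a ratio) and −log10 of its p-value and q-value. Read counts were not used and the depth is unknown. The lists held 17493 to 88347 H3K27ac peaks and 21129 to 34640 KLF4 peaks, and the weakest peak of a list had a −log10 p of 2.00 to 2.09, so weaker signal is unseen. The 13 inputs were not used here.

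Peaks were summed per gene with 50 kb to each side (GRCm38.p6 gene table), scaled to the list, and tested over all genes with a peak in at least 2 libraries with limma 3.58.1 (R 4.3.3, trend and robust), with Benjamini-Hochberg adjustment within a contrast and a threshold of 0.05. Peaks of a mark were merged into regions (overlap of at least 1 bp); a region was present at a stage with at least 2 libraries, absent with none, and otherwise undecided. The rule for named regions took, per gene and mark, those over a start and up to 3 more by fold that were present at one stage and absent at another; other regions were named after their values were seen. Pathway genes named are the 8 largest ESC minus MEF differences past the threshold, and the alkaline phosphatases, named after their values were seen. The code was tested on simulated data. The members, lists and tests were chosen with earlier results of these data known.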

Additional observations from a re-analysis of the deposited data

How the results depend on the processing

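ESC minus MEF for H3K27ac gave 7 of 7 members higher under every alternative run except the 5 kb window, which gave 6, and with each library left out. Other counts moved, and the cause was not tested. For H3K27ac from MEF to day 3, 2 members lower became 1 with windows of 20 kb or 5 kb or the same number of top peaks, and 2 higher became 1 with unscaled length over the same number of top peaks (chosen, like the pair of KLF4 libraries below, after seeing the data). From day 3 to day 6, 4 higher became 1 in unscaled length, with all or top peaks: Trim71 was -0.60 and -0.094, and Tdh -0.10 with all peaks. From day 6 to day 9, 4 higher became 7 in unscaled length, with all or top peaks, and 2 with batch as a term, while 1 lower (Trim71) became 0 with 20 kb or 5 kb windows, top peaks, the stronger 50% of each list, unscaled length and batch as a term. Trim71 was then 1.52 unscaled and 1.25 unscaled with top peaks, and Sall4 by peak number was -0.46. From day 9 to ESC, 4 higher became 1 with the 5 kb window or peak number. With a replicate block, 1 member was higher and 0 lower from day 6 to day 9 (2 and 0 with the day 6 numbers exchanged, as the peak names have them), and 0 were higher from day 9 to ESC either way. The numbers do not pair the libraries (correlations of same-numbered deviations -0.008 to 0.035). KLF4 groups share fewer than 2 numbers, so no block was possible there.

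For KLF4, 3 members past the threshold in any contrast, and 3 higher in ESC than at day 3, became 1 with a 20 kb window or top peaks, 0 with the stronger 50%, q at most 0.01, no scaling, or without ESC EA-2643 and 2i DG-3012, and 5 by covered length, where 9.91% of all genes were higher in ESC than at day 3 in place of 4.92%. The exact permutation F, with a smallest p of 0.00106, gave 0. The 1 member higher than at day 9 became 0 with 20 kb or 5 kb windows, top peaks, the stronger 50%, q at most 0.01, no scaling, a pseudocount of 0.05 or without that pair. Lin28b, ESC minus day 3, was 0.39 without ESC EA-2643, alone or in the pair, and -1.36 without ESC EA-2697.

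Regions gained in ESC (75) numbered 138 when 1 library sufficed and 26 with top peaks. Those at day 3 (5) were 8 with 1 library and 3 at q at most 0.01, those at day 9 (20) were 11 with top peaks, and those with no peak on days 3 to 9 (49) were 108, 15 with top peaks and 31 in 20 kb. KLF4 regions in ESC (32) were 69 with 1 library and 19 by q, those at day 3 (12) were 25 with 1 library, and day 3 KLF4 with H3K27ac (9) was 5 with top peaks. At q at most 0.01, start peaks fell to 2 members for H3K27ac at day 6, and to 1, 2 and 2 for KLF4 at day 3, in ESC and in 2i.

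Leaving out 1 library gave 2 to 4 members higher (2 without day 9 replicate 1, which ended the calls of Sall1 and Sall4) and 0 to 2 lower from day 6 to day 9. The KLF4 counts ran from 0 to 3 for any contrast and for ESC minus day 3, and 0 to 1 for ESC minus day 9. The regions ran from 74 to 140 (gained in ESC), 3 to 6 (at day 3), 49 to 106 (no peak on days 3 to 9), 32 to 65 (KLF4 in ESC), 9 to 14 (day 3 KLF4 with H3K27ac) and 28 to 53 (ESC KLF4 with H3K27ac); 140, 106, 65, 14 and 53 come from a stage with 1 library left. Depth is unknown, so how far it limits a missing peak was not tested.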
